A study of Mus musculus with 6 samples.

Results

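The 8 genes described here, Hmgcs1, Idi1, Fdps, Fdft1, Sqle, Msmo1, Sc5d and Insig1, are 7 enzymes of cholesterol synthesis and 1 regulator of that pathway, out of 43629 genes in the count table. They were selected on measured values, since they were named after their counts were found lower under anti-PD-1 than in control, and the rows of the table were then found by gene symbol. Each library was made from B16F10 melanoma tumours grown under the skin of female C57BL/6J mice aged 8 weeks, and B16F10 is a mouse melanoma cell line of the same strain background. Tumours that had received the same treatment were combined before RNA was extracted, so there were 6 libraries and 1 per treatment. The pools were DMSO with anti-PD-1 (called anti-PD-1), AZD5363 with MK1775 and control IgG (AZD5363+MK1775), AZD5363 with MK1775 and anti-PD-1 (AZD5363+MK1775+anti-PD-1), KS100 with control IgG (KS100), KS100 with anti-PD-1 (KS100+anti-PD-1), and DMSO with control IgG (control). Anti-PD-1 is an antibody that blocks an inhibitory receptor of T cells, AZD5363 inhibits the kinase AKT, MK1775 inhibits the kinase WEE1, and KS100 inhibits aldehyde dehydrogenases. Dosing was daily and ended when control tumours reached 2000 mm3. The 3′ ends of polyadenylated transcripts were read once each by a QuantSeq FWD library, so a count is a read near the end of a transcript.

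Cholesterol is built in the endoplasmic reticulum from acetyl-CoA by way of mevalonate, farnesyl diphosphate, squalene and lanosterol. The genes of the pathway share a transcription factor, SREBP2, which is held in the membrane by SCAP and the INSIG proteins when sterols are plentiful and is released to the nucleus when they are scarce. The products feed membranes, protein prenylation, ubiquinone and dolichol, and dividing tumour cells are known to make much of their own cholesterol.

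The pools held 25521 to 1591673 counts, a 62.4-fold range. Totals were 1002088 with anti-PD-1, 26639 with AZD5363+MK1775, 338474 with AZD5363+MK1775+anti-PD-1, 44748 with KS100, 25521 with KS100+anti-PD-1 and 1591673 in control. Of the 7 melanocyte markers, all were detected in the anti-PD-1, AZD5363+MK1775+anti-PD-1 and control pools, and Tyr was at 0 in the other 3. Their summed level was 17571, 9064, 17060, 6193 and 3535 normalised CPM (counts scaled to TMM effective totals, per 1000000) in the 5 treated pools in the order above, against 21175 in the control pool. Ribosomal RNA took 27.4% of the counts under AZD5363+MK1775+anti-PD-1 and at most 5.01% of those of the others. It took 2.86% to 5.01% under AZD5363+MK1775, KS100 and KS100+anti-PD-1, 0.0567% under anti-PD-1 and 0.121% in control. Mitochondrial genes took 1.24% under anti-PD-1, 10.9% under AZD5363+MK1775, 5.23% under AZD5363+MK1775+anti-PD-1, 12.6% under KS100, 11.5% under KS100+anti-PD-1 and 1.77% in control, so both shares were higher in the 4 inhibitor pools than in the other pools. Their part in the differences below was not tested. In pooled tumours, fewer cells of a type and less RNA per cell cannot be told apart.

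Between 2 pools there was no replicate check and no p-value. A call of lower or higher needed 20 counts or more in 1 of them, a normalised ratio of 2-fold or more either way, and a 95% Clopper-Pearson interval (exact, conditional on the gene's sum) that stayed beyond 1.5-fold. Such intervals reflect counting error alone and treat each read as independent. Reads carry no molecular identifiers in this table, so repeated reads of the same molecule cannot be removed and the intervals may be too narrow.

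Promoter sequence is shown for members whose bases upstream of the RefSeq start hold letters that regulators of this pathway are known to bind. Only stretches that overlap no annotated UTR are printed. RefSeq promoters (build GRCm38.p6) were matched for 5 of the 8 members, Hmgcs1, Idi1, Msmo1, Sc5d and Insig1; those of Fdps, Fdft1 and Sqle were not used here. Capitals mark a sterol regulatory element pattern (TCACNCCAC), an E-box (CACGTG) or a CCAAT box (CCAAT, or ATTGG on the other strand), each written 5′ to 3′ on the gene's strand. The stretches are Hmgcs1 at chr13:119690106-119690318 (plus strand), Sc5d at chr9:42264312-42264406 (minus strand) and Insig1 at chr5:28071188-28071324 (plus strand).
Hmgcs1: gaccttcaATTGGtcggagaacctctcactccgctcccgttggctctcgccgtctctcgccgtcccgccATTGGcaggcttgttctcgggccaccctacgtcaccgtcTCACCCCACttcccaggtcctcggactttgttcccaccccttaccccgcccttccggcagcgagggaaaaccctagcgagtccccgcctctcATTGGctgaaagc
Sc5d: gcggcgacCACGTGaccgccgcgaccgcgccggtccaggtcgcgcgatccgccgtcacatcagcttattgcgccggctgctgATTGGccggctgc
Insig1: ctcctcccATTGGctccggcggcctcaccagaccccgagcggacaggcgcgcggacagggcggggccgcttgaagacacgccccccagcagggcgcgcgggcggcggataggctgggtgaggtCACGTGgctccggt

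Within the 250 bases before the start, on both strands, TCACNCCAC was found in 1 of the 5 members, Hmgcs1. It lay at 137 to 129 bases before the start. The pattern was in 0 of 11 other sterol pathway genes with a promoter and in 1.05% of 32851 RefSeq promoters. The shorter pattern CACNCCAC, which the longer one contains, was found in Hmgcs1 and Insig1, in 1 of those 11 genes and in 5.29% of all promoters. The E-box was found in Sc5d and Insig1, in 2 of those 11 genes and in 6.02% of all promoters. The CCAAT box was found in 5 of 5 members, with 3 copies each in Hmgcs1 and Msmo1, in 10 of 11 other sterol pathway genes with a promoter, and in 33.8% of all promoters. The GC box GGGCGG was also found in 5 of 5 members, in 10 of those 11 genes and in 32.7% of all promoters, a share that was 42.6% among protein-coding genes. These are matches of letters in a window and no binding was measured.

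The first enzyme among the members is Hmgcs1, the cytosolic HMG-CoA synthase, which acts before mevalonate is formed (chr13:119690379-119708260, plus strand, GRCm38). Counts were 138 with anti-PD-1, 3 with AZD5363+MK1775, 68 with AZD5363+MK1775+anti-PD-1, 3 with KS100, 3 with KS100+anti-PD-1 and 375 in control. As normalised CPM these were 140 (117 to 165), 109 (22.5 to 319), 338 (263 to 429), 90.6 (18.7 to 265), 174 (35.9 to 508) and, in control, 246 (221 to 272). Hmgcs1 was the member whose highest level was under AZD5363+MK1775+anti-PD-1, and that level exceeded the next, the control pool's, with an interval above 1. No other neighbours in its order of levels differed beyond counting error. A non-coding antisense gene, Gm48342, overlaps it away from its 3′ end.

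Idi1 isomerises isopentenyl diphosphate to dimethylallyl diphosphate (chr13:8885501-8892451, plus strand). Counts were 8 with anti-PD-1, 1 with AZD5363+MK1775, 1 with AZD5363+MK1775+anti-PD-1, 0 with KS100 and KS100+anti-PD-1, and 15 in control. It was the member with the fewest counts in control and stayed under the minimum of 20 counts in every comparison, so nothing was called for it. Its 0 counts allow up to 90.6 normalised CPM under KS100 and 174 under KS100+anti-PD-1, where control had 9.82. Its processed pseudogene Gm13502, identical over 684 bases, had 0 counts in every pool.

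Fdps makes farnesyl diphosphate, the branch point to sterols, prenyl groups, ubiquinone and dolichol (chr3:89093588-89101959, minus strand). Counts were 215 with anti-PD-1, 10 with AZD5363+MK1775, 29 with AZD5363+MK1775+anti-PD-1, 5 with KS100, 2 with KS100+anti-PD-1 and 819 in control. The normalised levels were 217 (189 to 248), 364 (175 to 669), 144 (96.6 to 207), 151 (49 to 353), 116 (14 to 419) and, in control, 536 (500 to 574) CPM. Every treated pool lay below control, and all their intervals except that of AZD5363+MK1775 stayed below that of control. Fdps has near-identical processed pseudogenes, of which Gm3571 held 14 counts in the control pool and 0 under anti-PD-1, and it shares exons with Gm43738 on the same strand, so its values are uncertain to the extent that such reads were split or dropped.

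Fdft1, squalene synthase, is the first step committed to sterols (chr14:63145150-63179578, minus strand). Counts were 21 with anti-PD-1, 2 with AZD5363+MK1775, 2 with AZD5363+MK1775+anti-PD-1, 0 with KS100 and KS100+anti-PD-1, and 81 in control. Its normalised level was 21.2 (13.1 to 32.5) CPM under anti-PD-1, 72.8 (8.82 to 263) under AZD5363+MK1775 and 9.95 (1.2 to 35.9) under AZD5363+MK1775+anti-PD-1, against 53 (42.1 to 65.9) in control. The anti-PD-1 and AZD5363+MK1775+anti-PD-1 intervals lay below that of control, while 0 counts allow up to 90.6 CPM under KS100 and 174 under KS100+anti-PD-1. The last 774 bases of Fdft1 overlap the 3′ end of Ctsb on the other strand, which had 499 counts in each of the anti-PD-1 and control pools, and the strand setting of the counting is not given in the sources used here, so reads of the 2 genes may not have been told apart.

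Sqle, squalene epoxidase, adds the oxygen that lets squalene cyclise and is a known control point of the pathway (chr15:59315077-59331192, plus strand). Counts were 177 with anti-PD-1, 3 with AZD5363+MK1775, 19 with AZD5363+MK1775+anti-PD-1, 10 with KS100, 2 with KS100+anti-PD-1 and 548 in control. These were 179 (154 to 207), 109 (22.5 to 319), 94.5 (56.9 to 148), 302 (145 to 556), 116 (14 to 419) and, in control, 359 (329 to 390) normalised CPM. Control was highest and AZD5363+MK1775+anti-PD-1 lowest, and no adjacent levels in the order differed beyond counting error.

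Msmo1 removes methyl groups at carbon 4 of the sterol ring (chr8:64718139-64733792, minus strand). Counts were 239 with anti-PD-1, 12 with AZD5363+MK1775, 87 with AZD5363+MK1775+anti-PD-1, 18 with KS100, 3 with KS100+anti-PD-1 and 739 in control. The levels were 242 (212 to 274), 437 (226 to 763), 433 (347 to 534), 544 (322 to 859), 174 (35.9 to 508) and, in control, 484 (450 to 520) normalised CPM. The AZD5363+MK1775, AZD5363+MK1775+anti-PD-1 and KS100 pools stood near control, and the lowest levels were those of the anti-PD-1 and KS100+anti-PD-1 pools. Neither it nor Sqle or Sc5d overlaps another gene or has a near-identical copy.

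Sc5d puts in the double bond at carbon 5 late in the pathway (chr9:42251595-42264256, minus strand). Counts were 55 with anti-PD-1, 3 with AZD5363+MK1775, 10 with AZD5363+MK1775+anti-PD-1, 6 with KS100, 0 with KS100+anti-PD-1 and 164 in control. Its normalised level was 55.6 (41.9 to 72.4) CPM under anti-PD-1 and 49.7 (23.9 to 91.5) under AZD5363+MK1775+anti-PD-1, against 107 (91.6 to 125) in control, and the KS100+anti-PD-1 pool allowed up to 174 CPM. Both of those treated intervals lay below that of control, and the AZD5363+MK1775 and KS100 pools, at 109 and 181 CPM, were not below it.

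Insig1, the only member that is no enzyme, holds SCAP in the endoplasmic reticulum and is itself a known target of SREBP (chr5:28071363-28078662, plus strand). Counts were 18 with anti-PD-1, 3 with AZD5363+MK1775, 13 with AZD5363+MK1775+anti-PD-1, 6 with KS100, 0 with KS100+anti-PD-1 and 95 in control. Its normalised level was 18.2 (10.8 to 28.8) CPM under anti-PD-1, 64.7 (34.4 to 111) under AZD5363+MK1775+anti-PD-1 and 181 (66.5 to 395) under KS100, against 62.2 (50.3 to 76) in control. The anti-PD-1 pool had the lowest level of all pools with a count, and only there did the interval lie below that of control.

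**Figure D1:**
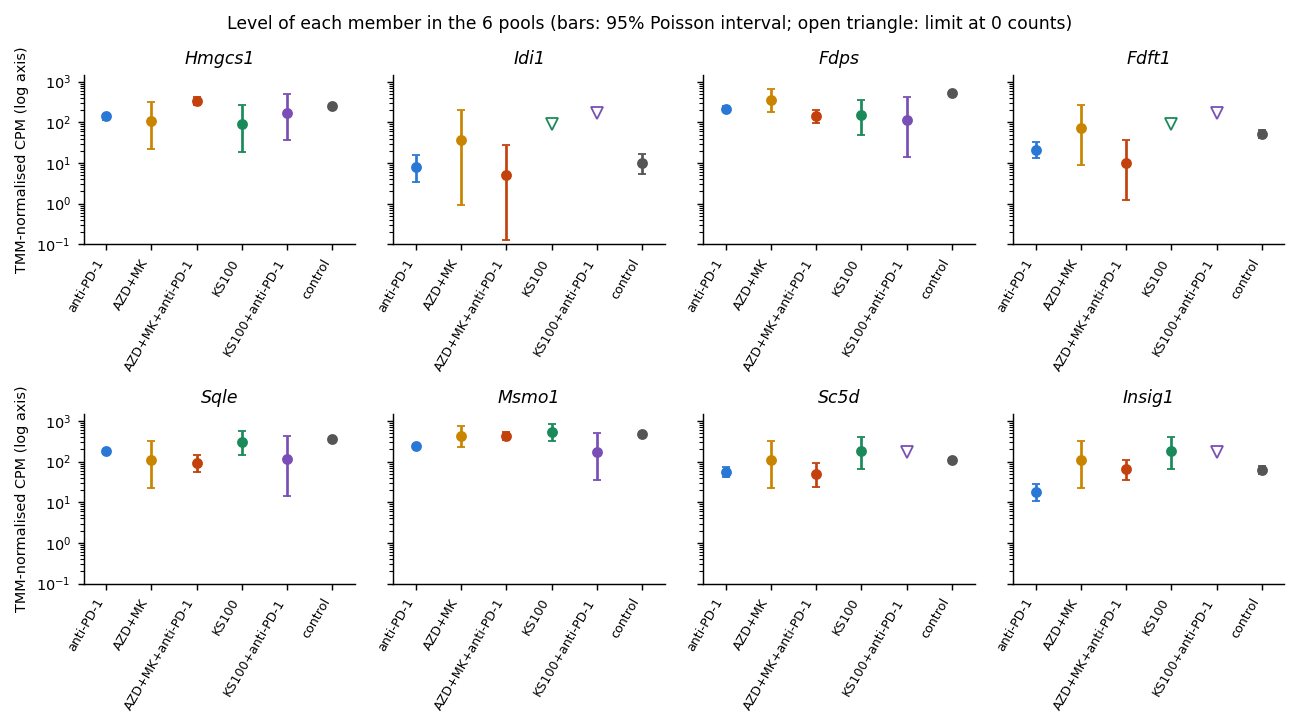
Each panel shows 1 member, with the 6 pools along the x axis (AZD+MK stands for AZD5363+MK1775) and TMM-normalised CPM on a log y axis. Points are levels with 95% Poisson intervals, and open triangles mark the level of 3 counts in pools at 0. Intervals are narrow in the anti-PD-1 and control pools and wide in the 3 shallow pools, such as 0.922 to 203 for Idi1 under AZD5363+MK1775.

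The anti-PD-1 pool against control was the contrast on which the members were selected, so its values are a description with no test. Summed over the 8 members, it held 871 counts and 881 (823 to 941) normalised CPM, against 2836 counts and 1857 (1789 to 1927) CPM in control, a ratio of 0.474 (0.439 to 0.512). Of 7 members with enough counts, 5 were lower and 0 higher, where 2.14% of the 8119 genes tested were lower and 2.69% higher. The median log2 ratio of those 7 was -1.0, and that of all genes tested was -0.00. The ratios were 0.293 (0.166 to 0.488) for Insig1, 0.400 (0.235 to 0.653) for Fdft1, 0.405 (0.347 to 0.472) for Fdps, and 0.499 for both Sqle (0.419 to 0.592) and Msmo1 (0.43 to 0.579). Just outside the rule were Sc5d at 0.518 (0.374 to 0.707) and Hmgcs1 at 0.568 (0.464 to 0.693), and Idi1, under the minimum count, was at 0.824 (0.302 to 2.07). Under the other scalings 2 or 3 members were called. Sqle and Msmo1 passed the limit of 2-fold with library totals, at 0.513 and 0.514, and the call for Fdft1 was lost as well with library totals, at 0.412, and with totals of nuclear protein-coding genes, at 0.409. As shares of the members' counts, Insig1 took 2.07% (1.23 to 3.25) under anti-PD-1 and 3.35% (2.72 to 4.08) in control, Fdps 24.7% (21.9 to 27.7) under anti-PD-1 and 28.9% (27.2 to 30.6) in control, and Idi1 0.918% (0.397 to 1.8) under anti-PD-1 and 0.529% (0.296 to 0.871) in control. Msmo1 took 27.4% (24.5 to 30.5) under anti-PD-1 and 26.1% (24.5 to 27.7) in control, and Sqle took 20.3% (17.7 to 23.1) under anti-PD-1 and 19.3% (17.9 to 20.8) in control. The intervals of these 5 members overlapped, while the odds ratio of Hmgcs1 to Fdps counts between the 2 pools was 1.4 (1.09 to 1.81).

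Other enzymes of the pathway, from a list of 12 that holds none of the members, were lower under anti-PD-1 for 2 of 11 tested and higher for 0. They were Mvk (mevalonate kinase) at 0.312 (0.18 to 0.515) and Mvd (mevalonate diphosphate decarboxylase) at 0.422 (0.282 to 0.618). Cyp51, the lanosterol demethylase, was not past the rule at 0.604 (0.523 to 0.696), on 273 counts under anti-PD-1 and 698 in control, and over the 11 the median log2 ratio stood at -0.71. Among 9 SREBP regulators and uptake genes, Stard4, a sterol carrier, was lower at 0.414 (0.295 to 0.572). The remaining 8, among them Srebf2 (0.7), Scap (0.956), Mbtps1 (1.05), Npc2 (0.804) and Insig2 (0.667), were not past the rule. Of 8 fatty acid synthesis genes tested 0 were called, with Scd2 at 0.516 (0.479 to 0.555), Scd1 at 0.524 (0.398 to 0.684) and Fasn at 0.862, and 0 of 6 genes of other isoprenoid branches. The fatty acid list summed to 0.599 (0.565 to 0.635) and the 12 other sterol enzymes to 0.631 (0.577 to 0.69). Scd2 alone held 964 of the 1578 fatty acid counts under anti-PD-1 and 2887 of the 4066 in control, so that sum mostly follows Scd2. Over the 8 fatty acid genes tested the median log2 ratio was -0.37, nearer to no change than the -0.71 of the sterol enzymes. These lists were drawn up with the members' lower counts known and share their 2 pools.

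In the same comparison, other cell types' markers also differed. The summed level was 1632 CPM under anti-PD-1 against 120 in control for 6 fibroblast markers, 664 against 47.8 for 5 skeletal muscle markers, 3696 against 596 for 5 erythroid markers and 244 against 87.7 for 6 macrophage markers, and the number called higher was 4 of 4, 4 of 4, 4 of 4 and 1 of 2 tested. Endothelial markers summed to 354 CPM under anti-PD-1 against 164 in control, with 3 of 5 tested called higher. Fat cell markers summed to 229 against 95.6, with 1 of 1 tested called higher and Plin1 and Cidec at 0 in both pools. T cell markers were at 0 under anti-PD-1 and had 1 count in control. Melanocyte markers summed to a ratio of 0.83 (0.815 to 0.845), with 0 of 7 called and a median log2 ratio of -0.45. Set against the melanocyte markers within each pool, the members had 5.01 (4.68 to 5.37) counts per 100 marker counts under anti-PD-1 and 8.77 (8.44 to 9.11) in control. The part of other cells in the lower member counts was not tested.

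The AZD5363+MK1775+anti-PD-1 pool was the other one deep enough to read most members, and there they split. Fdps and Sqle were lower than in control, at 0.269 (0.179 to 0.389) and 0.263 (0.157 to 0.415). Hmgcs1 at 1.38 (1.05 to 1.79), Msmo1 at 0.894 (0.708 to 1.12) and Insig1 at 1.04 (0.534 to 1.86) were not past the rule. Fdft1, on 2 counts in that pool, had a ratio of 0.188 (0.0223 to 0.7), Sc5d one of 0.463 (0.218 to 0.874) and Idi1 one of 0.506 (0.012 to 3.29). Thus 2 of 7 members tested were lower and 0 higher, where 8.02% of 8059 genes were lower and 14.9% higher, and all 7 had enough counts in control to be called lower had they been at 0, as had 5765 genes, of which 11.2% were lower. The median log2 ratio of the 7 was -1.08, against -0.01 for all genes tested. The summed members were at 0.613 (0.534 to 0.702), with 1139 CPM in that pool and 1857 in control.

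This split does not rest on how the pools were scaled, because 2 members of the same library can be compared directly. Which pairs to compare was chosen after their values were seen, and a ratio of tag counts between genes is read here only across pools. There were 2.34 (1.5 to 3.76) Hmgcs1 counts per Fdps count under AZD5363+MK1775+anti-PD-1 and 0.458 (0.404 to 0.518) in control, an odds ratio of 5.11 (3.2 to 8.34). Msmo1 to Fdps was 3 (1.95 to 4.74) in that pool and 0.902 (0.816 to 0.998) in control, an odds ratio of 3.32 (2.13 to 5.31). Against Sqle the odds ratio was 5.22 (3.04 to 9.36) for Hmgcs1 and 3.39 (2.02 to 5.98) for Msmo1. For Sqle to Fdps the odds ratio was 0.979 (0.513 to 1.83), on 19 and 29 counts in that pool. No change in their proportion was seen, but the interval is too wide to show that it was kept. In the anti-PD-1 pool Hmgcs1 to Fdps was 0.642 (0.515 to 0.799) and Msmo1 to Fdps 1.11 (0.921 to 1.34). The shallow pools left wide intervals, such as 0.6 (0.0932 to 3.08) for Hmgcs1 to Fdps under KS100.

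**Figure D2:**
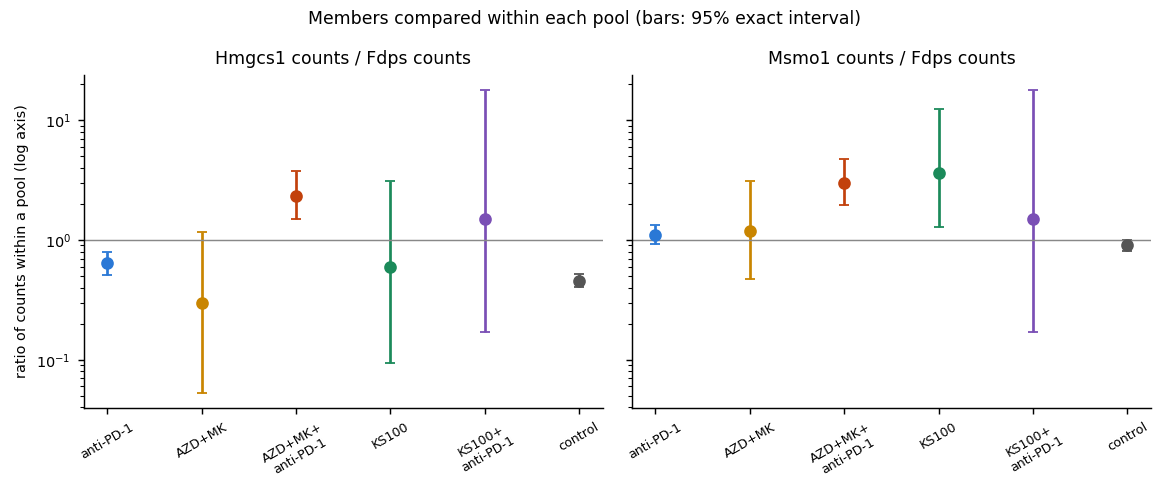
Hmgcs1 counts per Fdps count (left panel) and Msmo1 counts per Fdps count (right panel) are plotted on a log y axis for the 6 pools on the x axis, with 95% exact intervals. The AZD5363+MK1775+anti-PD-1 pool stands at 2.34 and 3, above the anti-PD-1 pool at 0.642 and 1.11 and the control pool at 0.458 and 0.902, while the shallow pools have wide bars.

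As shares of the members' counts, Hmgcs1 took 29.7% (23.9 to 36.1) under AZD5363+MK1775+anti-PD-1 and 13.2% (12 to 14.5) in control, and Msmo1 38% (31.7 to 44.6) under the triple treatment and 26.1% (24.5 to 27.7) in control. Fdps took 12.7% (8.65 to 17.7) in that pool and 28.9% (27.2 to 30.6) in control, and Sqle 8.3% (5.07 to 12.7) there and 19.3% (17.9 to 20.8) in control. These intervals did not overlap for any of the 4 genes, whereas those of Idi1, Fdft1, Sc5d and Insig1 did. The shares of a pool have a fixed sum, so larger shares of Hmgcs1 and Msmo1 go with smaller shares elsewhere. The 4 differences are therefore not separate results, and they use the same counts as the ratios between members above. How often shares differ in this way among other genes was not tested.

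**Figure D3:**
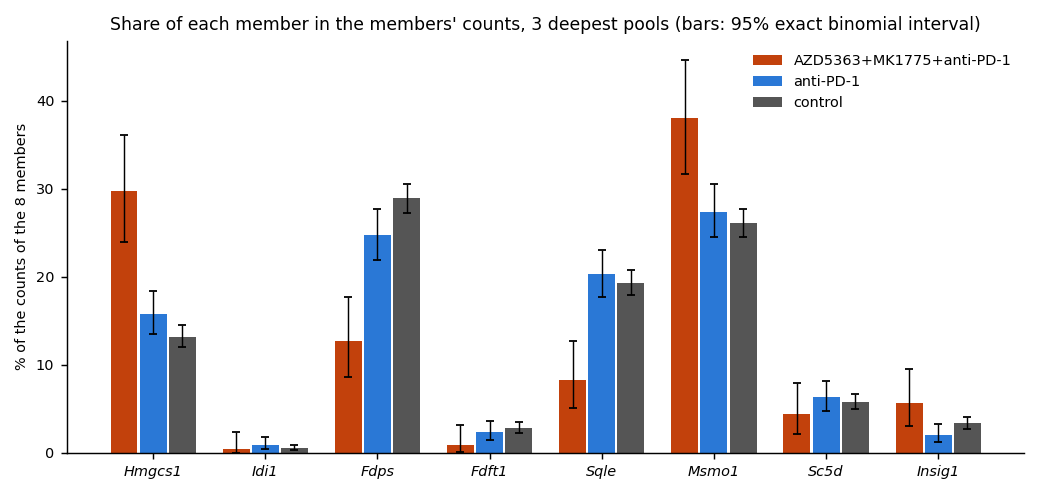
The y axis gives each member's share of the counts of all 8 members, in percent, and the x axis the member, with bars for the AZD5363+MK1775+anti-PD-1, anti-PD-1 and control pools and 95% exact binomial intervals. Hmgcs1 and Msmo1 bars are taller, and Fdps and Sqle bars shorter, under AZD5363+MK1775+anti-PD-1, while the anti-PD-1 bars lie nearer to control, at 15.8% for Hmgcs1 and 24.7% for Fdps.

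Other genes of the pathway under AZD5363+MK1775+anti-PD-1 were near control in sum, at 1.11 (0.966 to 1.27) for the 12 other enzymes, of which 1 of 11 tested was lower and 0 higher. That gene was Pmvk, phosphomevalonate kinase, at 0.266 (0.0849 to 0.634). Cyp51 was at 1.18 (0.951 to 1.44). Insig2, the paralog of Insig1, was lower at 0.392 (0.233 to 0.621). Npc1, which moves cholesterol out of lysosomes, was higher at 5.48 (3.34 to 8.9). On the branches that use farnesyl diphosphate, Fnta, the shared subunit of protein farnesyltransferase and its sister prenyltransferase, was at 0.307 (0.152 to 0.558), and Coq2, of ubiquinone synthesis, at 0.136 (0.0162 to 0.502), so 2 of 6 tested were lower and 0 higher. Of 8 fatty acid synthesis genes tested, 0 were called.

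**Figure D4:**
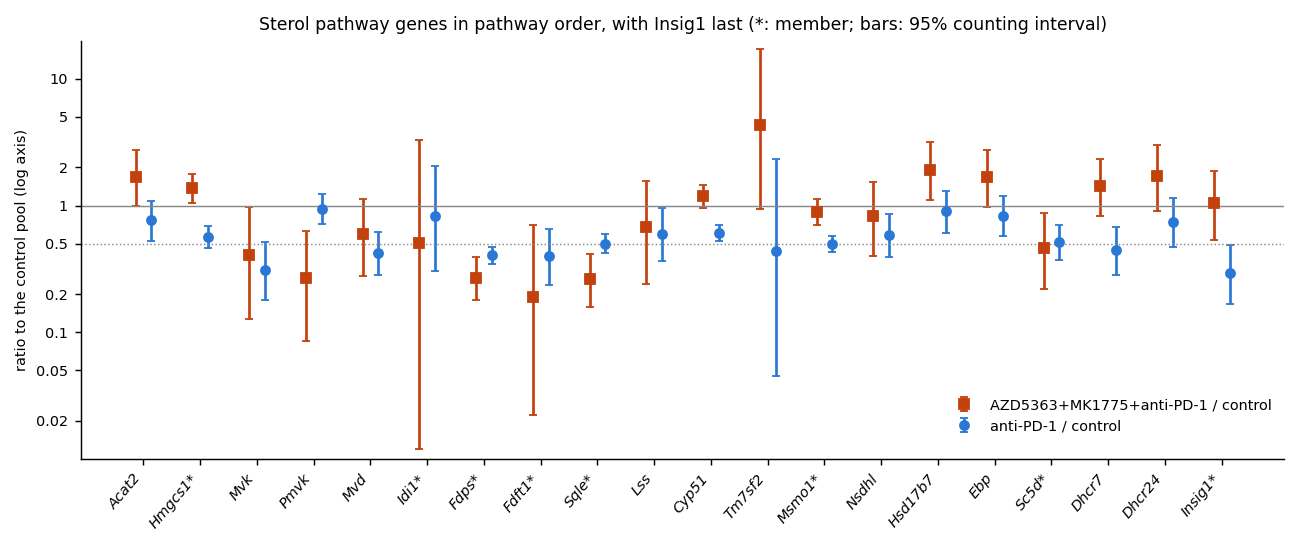
The x axis lists the member enzymes and the 12 others in pathway order and then Insig1, with members starred, and the log y axis gives the ratio to the control pool. Squares are AZD5363+MK1775+anti-PD-1 and circles anti-PD-1, with 95% counting intervals, a solid line at 1 and a dotted line at 0.5. The anti-PD-1 circles all lie below 1, while the squares for Fdps and Sqle lie at 0.269 and 0.263 and those for Hmgcs1, Cyp51 and Msmo1 at 1.38, 1.18 and 0.894.

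Markers of other cell types also differed here. The 5 skeletal muscle markers summed to 11907 CPM under AZD5363+MK1775+anti-PD-1 against 47.8 in control, the 6 macrophage markers to 522 against 87.7 and the 6 fibroblast markers to 751 against 120, with Lum at 0, while the 5 erythroid markers summed to 109 against 596, with Alas2 at 0. Melanocyte markers were at 0.806 (0.778 to 0.835) of control, and the members had 6.68 (5.81 to 7.63) counts per 100 of them, against 8.77 in control. With library totals in place of TMM every log2 ratio of this pool to control shifts by -0.69, so Hmgcs1 was at 0.853 and Msmo1 at 0.554, while Fdps was at 0.167 and Sqle at 0.163 and 4 members were lower. Neither the muscle signal nor the ribosomal share was tested as a source of these differences.

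The AZD5363+MK1775+anti-PD-1 pool was next set against the anti-PD-1 pool, to ask what the inhibitors added to the antibody. This comparison shares the anti-PD-1 pool with the selecting contrast. Under AZD5363+MK1775+anti-PD-1, Hmgcs1 was higher than under anti-PD-1, at 2.42 (1.79 to 3.26), the 1 member called of 6 tested, where 14% of 7138 genes were higher and 8.11% lower. Msmo1 at 1.79 (1.38 to 2.3), Fdps at 0.663 (0.434 to 0.981) and Sqle at 0.528 (0.311 to 0.849) were not past the rule, and Insig1, with 13 and 18 counts and so under the minimum, was at 3.55 (1.6 to 7.67). Sc5d at 0.894 (0.406 to 1.77), Idi1 at 0.615 (0.0139 to 4.59) and Fdft1 at 0.468 (0.0532 to 1.92) had intervals on both sides of 1. The sum of the members was 1.29 (1.11 to 1.5) and turned to 0.778 with library totals, under which Hmgcs1 was at 1.46 and no member was called higher, so the direction of the sum depends on the scaling. Other sterol enzymes summed to 1.76 (1.51 to 2.04), and Dhcr7, a late reductase of the pathway, was the 1 called higher of 10 tested, at 3.22 (1.71 to 5.95). Coq2 at 0.17 (0.0201 to 0.641) and Pdss1, also of ubiquinone synthesis, at 0.237 (0.0631 to 0.63) were lower, and Npc1, the 1 called of 9 SREBP regulators and uptake genes, was higher at 3.55 (2.16 to 5.76).

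The AZD5363+MK1775 pool, with 37 member counts in all, showed no member called against control. The sum was at 0.725 (0.51 to 1), on 1347 (948 to 1857) CPM in that pool and 1857 in control. Of 7 members tested, 4 (Hmgcs1, Fdps, Sqle and Msmo1) would have been called lower at 0 counts, and 1.28% of 7948 genes were lower and 1.65% higher. Of the 1069 genes that could have been called lower in that way, 9.54% were. Their ratios were 0.445 (0.0913 to 1.31) for Hmgcs1, 0.679 (0.324 to 1.25) for Fdps, 0.304 (0.0626 to 0.894) for Sqle and 0.903 (0.464 to 1.59) for Msmo1. The interval of Sqle lay below 1 without meeting the rule. Idi1 at 3.71, Insig1 at 1.76, Fdft1 at 1.37 and Sc5d at 1.02 rested on 1 to 3 counts and had intervals on both sides of 1. Among the pathway lists, Nsdhl, a sterol dehydrogenase of the step after Msmo1, was higher at 3.85 (1.51 to 8.23) on 7 counts, and Dhdds, of dolichol synthesis, at 6.04 (1.87 to 15.2) on 5. Muscle, macrophage, endothelial, T cell and fat cell markers were at 0 in this pool, which allows up to 134 CPM for each list, above the control levels of all but the endothelial markers (164), so a difference was not detectable for the others. Melanocyte markers were at 0.428 (0.376 to 0.485) of control. Against those markers the members had 14.9 (10.2 to 21) counts per 100, above the 8.77 of control.

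Adding anti-PD-1 to AZD5363+MK1775 gave a summed ratio of 0.846 (0.596 to 1.23), with 0 of 3 members tested called, where 3.72% of 2793 genes were lower and 11.1% higher. Both pools lie outside the selecting contrast. Msmo1 was at 0.991 (0.539 to 1.99), Fdps at 0.396 (0.188 to 0.911) and Hmgcs1, on 68 counts against 3, at 3.1 (1.02 to 15.4). The ratios of Sqle (0.865), Insig1 (0.592), Sc5d (0.455), Fdft1 (0.137) and Idi1 (0.137) rested on 1 to 3 counts under AZD5363+MK1775 and were under the minimum. The call for Fdps depends on the scaling, as 1 member was lower with library totals and 1 with totals of nuclear protein-coding genes, and without Fdps the sum was 1.01. Cyp51, on 108 counts against 3, was the 1 other sterol enzyme called, higher at 4.92 (1.64 to 24.2).

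In the KS100 pool, with 48 member counts, the sum was at 0.781 (0.574 to 1.04) of control. Fdps was lower, on 5 counts, at 0.282 (0.0912 to 0.66), 1 of 7 members tested, where 1.86% of 7951 genes were lower and 4.5% higher. Among genes with enough counts in control to be called lower at 0 counts, 1 of 4 members was lower and 11.2% of 1321 genes were. That call was lost when totals of nuclear protein-coding genes set the scale. Msmo1 at 1.12 (0.662 to 1.79), Sqle at 0.842 (0.402 to 1.56), Sc5d at 1.69 (0.611 to 3.75) and Insig1 at 2.91 (1.04 to 6.58) were not past the rule, nor was Hmgcs1, on 3 counts, at 0.369 (0.0758 to 1.09), and Idi1 and Fdft1 were at 0 counts. Within this pool there were 3.6 (1.29 to 12.4) Msmo1 counts per Fdps count against 0.902 in control, an odds ratio of 3.99 (1.42 to 13.8). Of the other pathway lists 0 genes were called. Melanocyte markers were at 0.292 (0.254 to 0.336) of control, with Tyr at 0, and the members had 23.4 (16.7 to 32.2) counts per 100 of them. Fibroblast markers summed to 4.51 (2.62 to 7.34) times control with 1 called higher, on 18 counts with Lum and Pdgfra at 0. Skeletal muscle markers summed to 5.69 (2.5 to 11.4) with 0 called, on 9 counts with Acta1, Tnnt3 and Ckm at 0. Endothelial markers were at 2.03 (1 to 3.7) with 1 higher, on 11 counts with Cdh5, Plvap and Esam at 0. Erythroid markers were at 0.304 (0.111 to 0.664) with 1 lower, on 6 counts with Hba-a2 and Alas2 at 0. The part of these cell types in the Fdps value was not tested.

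In the KS100+anti-PD-1 pool the 8 members had 10 counts, of which 3 each were from Hmgcs1 and Msmo1 and 2 each from Fdps and Sqle, and the other 4 were at 0. The sum was at 0.312 (0.15 to 0.575) of control, 580 (278 to 1066) CPM in that pool and 1857 in control. No member was called of 7 tested, where 2.86% of 7948 genes were lower and 4.59% higher. Among genes that could have been called lower at 0 counts, 0 of 3 members were lower and 39.8% of 571 genes were. The ratios were 0.216 (0.0261 to 0.783) for Fdps, 0.323 (0.039 to 1.17) for Sqle, 0.359 (0.0739 to 1.05) for Msmo1 and 0.708 (0.145 to 2.09) for Hmgcs1, while those of Idi1, Fdft1, Sc5d and Insig1, at 0 counts, were bounded only above 1. Npc2, a lysosomal partner of Npc1, at 0.205 (0.0422 to 0.6) and Scd2, a stearoyl-CoA desaturase, at 0.368 (0.19 to 0.644) were lower. Melanocyte markers were at 0.167 (0.128 to 0.215) of control, and the members had 16.4 (7.49 to 32.2) counts per 100 of them, an interval that includes the 8.77 of control. Fibroblast markers summed to 5.29 (2.6 to 9.69) times control with 2 called higher, on 11 counts with Dcn, Lum and Pdgfra at 0. Skeletal muscle markers summed to 18.2 (9.69 to 32) with 0 called, on 15 counts with Acta1, Tnnt3 and Ckm at 0. Endothelial markers were at 2.83 (1.21 to 5.67) with 1 higher, on 8 counts with Cdh5 and Esam at 0. Fat cell markers were at 4.24 (1.68 to 8.97) with 1 higher, on 7 counts with Adipoq, Plin1 and Cidec at 0. The part of these cell types in the lower sum was not tested.

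Against the KS100 pool, the KS100+anti-PD-1 pool had a summed ratio of 0.4 (0.18 to 0.8), the interval below 1, on 10 counts against 48. No member reached 20 counts in either pool, so 0 were tested, and 34% of the 209 genes that did were lower and 4.31% higher, with a median log2 ratio of -1.35 over those genes. The members' ratios were 1.92 for Hmgcs1, 0.767 for Fdps, 0.384 for Sqle and 0.32 (0.0603 to 1.1) for Msmo1. Sc5d and Insig1 had 0 counts against 6 each, with an interval of 0 to 1.63 that includes 1. Idi1 and Fdft1 had none in either pool. Against the anti-PD-1 pool its sum was 0.658 (0.314 to 1.22), with 0 of 6 members called and none that would have been called lower at 0 counts, where 3.06% of 6959 genes were lower and 3.33% higher. Hmgcs1 was at 1.25, Msmo1 at 0.719, Sqle at 0.648 and Fdps at 0.533, all with intervals on both sides of 1, and Idi1, Fdft1, Sc5d and Insig1 were at 0 counts under KS100+anti-PD-1.

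Both inhibitor arms were also fitted across all 6 pools with edgeR's quasi-likelihood test, as arm plus antibody, so that the pools with and without anti-PD-1 stood in for replicates. Of the 8 members 6 passed the filter on low counts, Idi1 and Fdft1 not. In the AZD5363+MK1775 arm 0 members passed an adjusted p (Benjamini-Hochberg) of 0.05, and 0 had an unadjusted p under 0.05, also with DESeq2, where 0.0611% of 4912 genes were lower and 1.28% higher. The log2 changes by edgeR were 1.45 ± 0.96 for Insig1 (adjusted p = 0.743), -1.20 ± 0.86 for Sqle (adjusted p = 0.787), -0.59 ± 0.82 for Fdps (adjusted p = 0.912), 0.25 ± 0.86 for Hmgcs1 (adjusted p = 0.962), -0.05 ± 0.94 for Sc5d (adjusted p = 1) and 0.43 ± 0.81 for Msmo1 (adjusted p = 0.934), where ± is the SE. In the KS100 arm 0 members were called by edgeR or DESeq2 and 0 had an unadjusted p under 0.05, where 0.489% of genes were lower and 7.21% higher. Fdps was at -1.48 ± 1.00 (edgeR adjusted p = 0.426), Insig1 at 1.25 ± 1.18 (adjusted p = 0.595), Hmgcs1 at -0.67 ± 1.00 (adjusted p = 0.738), Sqle at -0.34 ± 0.91 (adjusted p = 0.861), Sc5d at 0.15 ± 1.15 (adjusted p = 0.955) and Msmo1 at -0.02 ± 0.87 (adjusted p = 0.994). This SE was worked back from the log2 change and its F statistic and is an approximation. For the 6 members it ran from 0.81 to 1.18 log2 units over both arms, so these fits do not show that the members were level between them. Of the other sterol enzymes 0 of 8 fitted were called in either arm.

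Across the 6 pools, the genes whose profile was most like the members' mean were Met, Oaz2, Rpl28, Uqcrfs1 and Ncald, each with a Pearson r of 0.94 over 6 pools on log2 of normalised CPM plus 50, among 3330 genes with at least 100 counts in control. Met, the receptor of hepatocyte growth factor, had 1138, 50, 275, 62 and 17 counts in the treated pools in the order above and 2788 in control. Each member set against the mean of the other 7 gave from -0.24 for Hmgcs1 to 0.84 for Msmo1, with Sc5d at 0.80 and Fdps at 0.68. The points share depth and background, as 3 of the 6 pools are shallow.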

How the data were processed

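RNA of 6 tumour pools was measured, 1 per treatment, with QuantSeq 3′ FWD libraries read for 151 cycles on a MiSeq, per the labels' protocols. The authors deposited 1 table of raw counts, with whole numbers for every Ensembl gene. Per the submitters' processing notes, bcl2fastq, HISAT2 2.1.0 and HTSeq were used with build GRCm38. The sources used here do not give the annotation, the strand setting or how multiply matching reads were handled, which are thus not stated. Spike-in names filled 92 of its 43721 rows, stood at 0 and were left out. Symbols, gene positions and overlaps came from GENCODE M21 (42462 of 43629 genes matched).

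The members and all gene lists were chosen with earlier results of these data known. Some genes of the pathway lists are not reported here and were left out of the lists' counts and sums. The members are named in each comparison, and other pathway genes where they were past the size rule (at most 4 per list and comparison, by distance of the ratio from 1). Genes with at least 200 counts in control could also be named, and only some of them are given. Median log2 ratios used a prior count of 2. Counts were scaled to TMM effective totals (edgeR 4.0.16, R 4.3.3), whose factors ran from 0.675 to 1.156. In the 9 comparisons of 2 pools the size rule was used with exact intervals (SciPy 1.17.1). The additive edgeR fit kept 4912 genes by filterByExpr and left 2 residual degrees of freedom, and DESeq2 1.42.0 was an alternative. In that fit, pools of another treatment serve as replicates and any interaction is part of the residual. The steps were tried on simulated counts that varied less than those of these pools, so that trial does not measure their error rates here. A count of 0 was taken to allow up to 3 counts, which is 1.88 CPM of the library total in control and 118 with KS100+anti-PD-1.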

Additional observations from a re-analysis of the deposited data

How the results depend on the processing

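No paired analysis was possible because each treatment had 1 pool. For anti-PD-1 against control, 2 members were lower with library totals, 3 with DESeq2 size factors and 2 with totals of nuclear protein-coding genes, in place of 5. With library totals, which also count ribosomal and mitochondrial reads, the AZD5363+MK1775+anti-PD-1 pool was the most affected. Its member sum was 0.38 against control with 4 members lower, 0.487 against AZD5363+MK1775 with 1 lower, and 0.778 against anti-PD-1, the opposite direction, with 2 lower and 0 higher. Under that scaling 1 member was lower for KS100+anti-PD-1 against control. With nuclear protein-coding totals, 0 members were lower for KS100 against control and 1 for AZD5363+MK1775+anti-PD-1 against AZD5363+MK1775. Without Fdps the sum for AZD5363+MK1775+anti-PD-1 was 0.753 against control and 1.5 against anti-PD-1. A minimum of 10 counts made 2 members higher for AZD5363+MK1775+anti-PD-1 against anti-PD-1. The looser rule (1.5-fold with the interval beyond 1) gave 1 member lower for AZD5363+MK1775 against control, 4 lower for AZD5363+MK1775+anti-PD-1 against control, 1 higher for KS100 against control, 1 lower for KS100+anti-PD-1 against control, 1 lower and 1 higher for AZD5363+MK1775+anti-PD-1 against AZD5363+MK1775, and 2 lower and 2 higher for it against anti-PD-1. The cause was not tested beyond the change of total or rule itself. Without Fdps the sum for AZD5363+MK1775+anti-PD-1 against AZD5363+MK1775 was 1.01 in place of 0.846, and the sum for KS100+anti-PD-1 against anti-PD-1 was 0.451 with library totals in place of 0.658. The looser rule gave 7 members lower for anti-PD-1 against control. Other sums stayed within the counting interval of the values given and other counts within 1.5 times of them. Among these, 0 members were called in either arm under DESeq2 and no filter, with 8 fitted, and library totals, with 6. Fits with 1 pool left out do not cover all members, as only 3 were fitted without the control pool. Sqle in the AZD5363+MK1775 arm had an unadjusted edgeR p of 0.0466 with library totals (adjusted p = 0.43).

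Counts over all genes moved too. With TMM, 646 genes were lower and 1202 (65% of those called) higher for AZD5363+MK1775+anti-PD-1 against control, and with library totals 1720 and 605 (26%). Against AZD5363+MK1775 they were 104 and 309 (74.8%), and 232 and 76 (24.7%) with library totals or 163 and 144 (46.9%) with nuclear protein-coding totals. Against anti-PD-1 they were 579 and 1000 (63.3%), and 1760 and 513 (22.6%) with library totals. For KS100 against control they were 148 and 358 (70.8%), and 321 and 258 (44.6%). For KS100+anti-PD-1 they were 227 and 365 (61.7%) against control, and 434 and 243 (35.9%), and 213 and 232 (52.1%) against anti-PD-1, and 439 and 163 (27.1%) with library totals or 163 and 276 (62.9%) with nuclear protein-coding totals. For AZD5363+MK1775 against control they were 102 and 131 (56.2%), 76 and 161 (67.9%) with library totals and 41 and 226 (84.6%) with nuclear protein-coding totals. The looser rule called 815 and 872 genes for anti-PD-1 against control, in place of 174 and 218. In the AZD5363+MK1775 arm edgeR called 3 genes lower and 63 higher of 4912. DESeq2 called 0 and 18 of 3614, and library totals 4 and 22 of 4912. In the KS100 arm edgeR called 24 lower and 354 higher of 4912, and DESeq2 18 and 846 of 10058. There the unfiltered fit called 22 and 1248 of 19725, and library totals 59 and 330 of 4912. As these fits tested different numbers of genes, their counts are not on the same base. Fits with 1 pool left out kept 1667 to 8429 genes and left 1 pool in a group, so their counts are not given. Depth limits the 3 shallow pools most, where 3 or 4 members at most could have been called lower.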

Other observations

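LXR receptors are known to switch on sterol efflux genes when sterols are plentiful. A list of 5 genes of efflux and LXR had few counts, and its values were looked at after those of the members. Nr1h2 and Nr1h3 encode the receptors themselves. Nr1h2, the only one of 5 that reached the minimum count, was at 1 (0.573 to 1.72) times control with anti-PD-1. It held 24 counts with anti-PD-1 and 37 in control, so the list's sum is not a measure of efflux genes alone. Of the genes under the minimum, the efflux genes Abca1 and Abcg1 were at 6.69 (1.84 to 36.6) and 2.83 (0.96 to 9.32). These rested on 13 counts against 3 and 11 against 6, while Mylip was at 0.618 (0.196 to 1.68). The 5 genes Nr1h2, Nr1h3, Abca1, Abcg1 and Mylip together had 55 counts with anti-PD-1, 0 with AZD5363+MK1775, 28 with AZD5363+MK1775+anti-PD-1, 5 with KS100, 1 with KS100+anti-PD-1 and 62 in control. Their sum was 1.37 (0.935 to 2) times control with anti-PD-1, where the members' sum was 0.474. With AZD5363+MK1775+anti-PD-1 it was 3.43 (2.11 to 5.44) times control, on 139 CPM in that pool and 40.6 in control. Macrophage markers also stood at a higher normalised level in that pool, at 522 CPM against 87.7 in control.

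Srebf1, whose product drives mainly fatty acid genes and which was picked after its values were seen, had 44 counts with anti-PD-1 and 36 in control, a ratio of 1.89 (1.19 to 3.02) that was not past the rule. Srebf2, whose product drives mainly sterol genes, was at 0.7 (0.56 to 0.871). With AZD5363+MK1775+anti-PD-1, Srebf1 was at 1.27 and Srebf2 at 0.455 (0.256 to 0.753), on 16 counts in that pool and 267 in control, also not past the rule.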
